A study of Mus musculus with 8 samples.

Results

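The peaks described here are regions of the mouse genome where 5-hydroxymethylcytosine (5hmC) was called in embryonic stem cells (ESCs) and in none of 3 differentiated samples. A peak was taken when it lay on a nuclear chromosome of the ESC list, shared at least 1 bp with a peak of a separate ESC library (shGFP), and shared no base with any peak of mouse embryonic fibroblasts (MEFs), brain or liver. This rule found 20965 ESC-only peaks among the 171865 peaks of ESCs, or 12.2% (exact 95% interval 12 to 12.4%), out of 948510 peaks in all 6 lists together. The peaks were selected on the presence of a call in 5 of the lists, so their number and their absence from differentiated cells are a description and not a result. The library of ESCs with a hairpin against Suz12 (shSuz12), the position of the peaks and their sequence were not used by the rule.

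5hmC was mapped by GLIB-Seq, in which the modified base is glucosylated, oxidised with periodate and biotinylated, so that the fragments that carry it are pulled down and sequenced. Each condition had 1 library: ESCs of the E14 line; E14 ESCs transfected with a puromycin-selected hairpin against GFP (shGFP), the control of the knockdown; the same with a hairpin against Suz12 (shSuz12); C57BL/6 MEFs, of embryonic day 11 according to the labels and of a later day according to the methods; and brain and liver of C57BL/6 mice aged 8 weeks. The ESC results therefore come from a single line, and brain and liver hold several cell types. The identity of the samples was not checked on marker transcripts. The only expression libraries of the series are those of shGFP and shSuz12 ESCs, and they were not analysed here. The deposited lists give the position and score of each peak but no reads, so the depth of the libraries is unknown. The lists end at different scores: at 80 for ESCs and liver, 50 for shGFP, 30.3 for shSuz12 and 30 for MEFs and brain. The score is taken as 10 times the negative log10 of the p-value of the peak caller. With 1 library per condition no difference between conditions was tested, and the 95% intervals of shares are exact binomial (Clopper-Pearson) ones that take in counting error only.

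5hmC is made when the Tet enzymes (Tet1, Tet2 and Tet3) oxidise 5-methylcytosine, the base that the DNA methyltransferases place mainly at CpG dinucleotides. It can be a step on the way to removal of methylation or persist as a mark of its own. ESCs express Tet1 and Tet2 strongly, and in them the mark is known at promoters with little or moderate CpG content, at enhancers and along gene bodies. Polycomb repressive complex 2 (PRC2), of which Suz12 is a core subunit, places H3K27me3 on the promoters of developmental regulators that are silent in ESCs.

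The reference sequence of 6 ESC-only peaks shows the kinds of site the list holds. Each line gives the central 200 bp of a peak on the plus strand of mm9, 5′ to 3′, with the CpG dinucleotides, the sites that can be methylated and hydroxymethylated on both strands, in capitals. Peaks whose central window touches an untranslated region were passed over, so that the highest scores named on a promoter, in a Hox gene or without an shSuz12 peak are those of the remaining peaks.
Highest score of the ESC-only peaks (chr5:26397249-26397448): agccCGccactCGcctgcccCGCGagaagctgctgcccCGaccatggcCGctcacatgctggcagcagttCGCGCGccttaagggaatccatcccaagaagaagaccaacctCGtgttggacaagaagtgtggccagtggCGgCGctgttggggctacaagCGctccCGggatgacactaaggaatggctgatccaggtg
Highest score on a promoter, that of Acta1 (chr8:126417660-126417859): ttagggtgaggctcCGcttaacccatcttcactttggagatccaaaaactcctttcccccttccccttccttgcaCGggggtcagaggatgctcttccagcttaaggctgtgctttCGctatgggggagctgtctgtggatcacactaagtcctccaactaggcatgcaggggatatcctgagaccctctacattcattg
Highest score in a pluripotency gene, Sall4 (chr2:168580541-168580740): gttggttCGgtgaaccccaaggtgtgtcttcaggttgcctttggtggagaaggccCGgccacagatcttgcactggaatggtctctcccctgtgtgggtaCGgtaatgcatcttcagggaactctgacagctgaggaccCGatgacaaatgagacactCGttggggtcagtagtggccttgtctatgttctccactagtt
Highest score in a Hox gene, Hoxb13 (chr11:96056738-96056937): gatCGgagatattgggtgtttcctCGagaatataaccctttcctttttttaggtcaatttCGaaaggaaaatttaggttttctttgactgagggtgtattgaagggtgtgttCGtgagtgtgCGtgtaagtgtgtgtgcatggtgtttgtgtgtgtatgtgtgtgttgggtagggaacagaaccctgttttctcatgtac
Highest score without an shSuz12 peak, in Acr (chr15:89403701-89403900): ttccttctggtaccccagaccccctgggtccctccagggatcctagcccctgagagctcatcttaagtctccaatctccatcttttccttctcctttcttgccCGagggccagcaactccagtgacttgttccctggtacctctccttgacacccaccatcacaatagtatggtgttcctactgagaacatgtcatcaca
Closest to the medians of width, score and CpG content, in Nsg2 (chr11:31902610-31902809): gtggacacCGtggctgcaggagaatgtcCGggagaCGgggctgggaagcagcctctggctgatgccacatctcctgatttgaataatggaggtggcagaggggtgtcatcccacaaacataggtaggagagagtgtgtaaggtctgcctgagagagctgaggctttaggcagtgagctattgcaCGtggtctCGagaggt

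The 6 windows differ in CpG content. The window of the highest-scoring peak holds 14 CpGs, those of Sall4, Hoxb13 and Nsg2 hold 5 each, that of Acta1 holds 3 and that of Acr holds 1. The peak on chromosome 5 had a score of 2883, was 1635 bp wide and lay between genes, 12.2 kb upstream of the annotated start of Gm7347. It was met by shGFP over 1445 bp and by shSuz12 over 1346 bp, and the nearest peak of a differentiated sample was 26701 bp away. The peak of Acta1, which encodes skeletal muscle actin, was centred 0.891 kb downstream of the transcription start site (TSS), with a score of 2213, and also lay in the annotated span of Gm20388. The Sall4 peak was 3846 bp wide, had a score of 1719 and was centred in an exon of this zinc-finger gene of the pluripotency network, but a peak of a differentiated sample lay only 142 bp from its edge. The Acr peak, in an intron of the gene of the sperm protease acrosin, had a score of 1597 in ESCs and of 142 in shGFP, and no shSuz12 peak touched it. The Nsg2 peak stands for the usual member: it was 840 bp wide, with a score of 181 in ESCs, 125 in shGFP and 35 in shSuz12.

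The other high-scoring members lay in and near named genes. The second score of the whole list, 2614, was in an intron of Lrrc16b on chromosome 14 (56116880 to 56119519). The next, 2588, was on the promoter of Trim52 on the same chromosome (106504721 to 106507026), 0.459 kb downstream of its TSS. A score of 2511 belonged to a peak of 3914 bp in an intron of Dnmt1, the maintenance methyltransferase (chr9:20727836-20731749), and a score of 2332 to an intergenic peak 13 kb upstream of Tlk2 (chr11:105025709-105028624). The last held 5.01 CpGs per 100 bp. Each of these 5 top peaks was also met by a peak in shSuz12, over 1346 to 2473 bp. The shSuz12 score was below the shGFP score at each of them, with 50.3 to 395 against 280.5 to 1096.

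ESC-only peaks were narrower and lower than the ESC peaks that shGFP and a differentiated sample also held. Those 75898 peaks, 44.2% of the ESC list, serve as the comparison below and are called shared peaks. The median width was 825 bp for ESC-only peaks (quartiles 695 and 1080, range 305 to 5424 bp) and 1069 bp for shared peaks. The median score was 179 (quartiles 119 and 293) against 289.8. At least 2 kb wide were 546 ESC-only peaks (2.6%) and 9824 shared peaks (12.9%). A wide peak has more bases on which another list can meet it, so width and score enter every comparison between these sets. The promoter and intergenic shares, the CpG content and the share met by shSuz12 were repeated within classes of width and of score. The other comparisons were not. Together the ESC-only peaks covered 19.8 Mb, and the shared peaks 98.7 Mb.

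Most members were met by shGFP over much of their length. The median share of a member under shGFP peaks was 84.6%, and 19347 members (92.3%) had at least 50% of their length under them. The shGFP score had a median of 91.2, and 12515 members (59.7%) reached 80 there. The nearest peak of MEFs, brain or liver lay at a median of 1437 bp. It was within 100 bp for 1242 members (5.92%), within 1000 bp for 8490 (40.5%) and within 10000 bp for 18948 (90.4%). The 3 lists are long, and the distance from other positions of the genome was not measured.

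At the edges of the rule, the peaks inside and outside were alike in size. The 113 members with a differentiated peak no more than 10 bp away had a median width of 798 bp and a median score of 168. The 108 peaks left out for an overlap of at most 10 bp had 762 bp and 156. At the shGFP edge, the 39 members with an overlap of at most 10 bp had a median score of 104, and the 48 peaks left out with a gap of at most 10 bp had one of 122. Of the 96863 ESC peaks met by shGFP, the share that was ESC-only was 21.6%. The MEF list met 53070 of them (54.8%), the brain list 47298 (48.8%) and the liver list 40733 (42.1%). MEFs were also the list that alone removed the most peaks, with 13921, against 7699 for brain and 7095 for liver, and the MEF list was the longest.

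ESC-only peaks lay more often between genes and on promoters than shared peaks, and less often in introns and exons. A promoter is the TSS of a protein-coding gene with 1 kb on each side, and a peak was placed by its midpoint. There were 10408 intergenic ESC-only peaks (49.6%, 95% interval 49 to 50.3%), against 33% of the shared peaks. Introns held 7474 (35.6%, 35 to 36.3%) against 51%, and exons 2061 (9.83%, 9.43 to 10.2%) against 12.8%. Promoters held 1022 (4.87%, 4.59 to 5.17%) against 3.16% (3.04 to 3.29%). The 18020 ESC peaks found in all the other samples used by the rule stood at the other end, with 21.3% intergenic, 61.9% intronic and 2.38% on promoters.

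**Figure D1:**
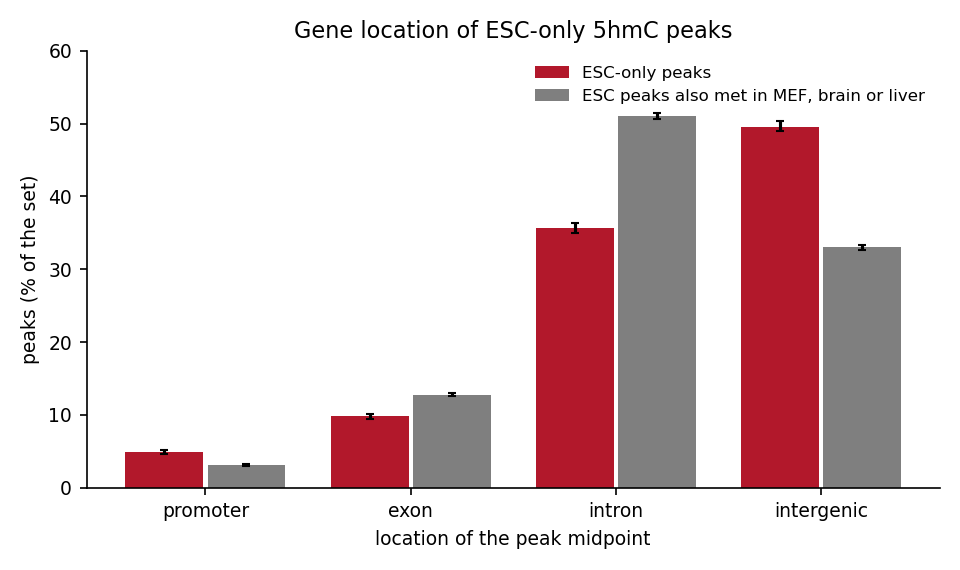
Share of peaks (%, y axis) whose midpoint lay on a promoter, exon, intron or between genes (x axis), for ESC-only peaks and for ESC peaks also met in MEF, brain or liver; error bars are exact 95% intervals for counting error. The ESC-only bars are higher for promoter (4.87 against 3.16%) and intergenic (49.6 against 33%) and lower for exon and intron.

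The same difference can be read as the part of each gene region that was ESC-only. Of the ESC peaks met by shGFP, 29.9% were ESC-only on promoters (28.3 to 31.4%) and 29.3% between genes (28.9 to 29.8%), but 17.5% in exons (16.8 to 18.2%) and 16.2% in introns (15.8 to 16.5%). Per Mb of genome, however, ESC-only peaks were densest in exons, with 30.6 per Mb, followed by promoters with 24.2, introns with 8.27 and intergenic DNA with 6.34. The promoter share of ESC-only peaks was 1.54 times that of shared peaks over all peaks, 1.19 to 2.53 times in the 6 width classes and 1.28 to 2.31 times in the 5 score classes, always in the same direction. In peaks of at least 1500 bp it was 7.72% against 3.05%. The intergenic share of ESC-only peaks was also the higher one in each width and score class. It was 53.3 against 33.5% below 600 bp and 43.5 against 27% at 1500 bp or more. Promoter and exon members also scored higher, with medians of 211 and 229 against 175 in introns and 171 between genes.

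Close to genes, both ESC-only and shared peaks were more frequent in the 250 bp after the TSS than in the 250 bp before it. The median distance from a midpoint to the nearest protein-coding TSS was 20.6 kb, against 24.9 kb for shared peaks. In the 250 bp after the TSS there were 200 ESC-only midpoints (0.954%, 0.827 to 1.09%), while the 250 bp before it held 116 (0.553%, 0.457 to 0.663%). Shared peaks had 0.49% in the same downstream bin and 0.337% in the upstream one. Over the first kb downstream the shares were 2.77 and 1.59%, and over the first kb upstream 2.1 and 1.57%. At that distance shared peaks were nearly even, and the bin from 750 to 500 bp upstream held 0.493% of them.

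**Figure D2:**
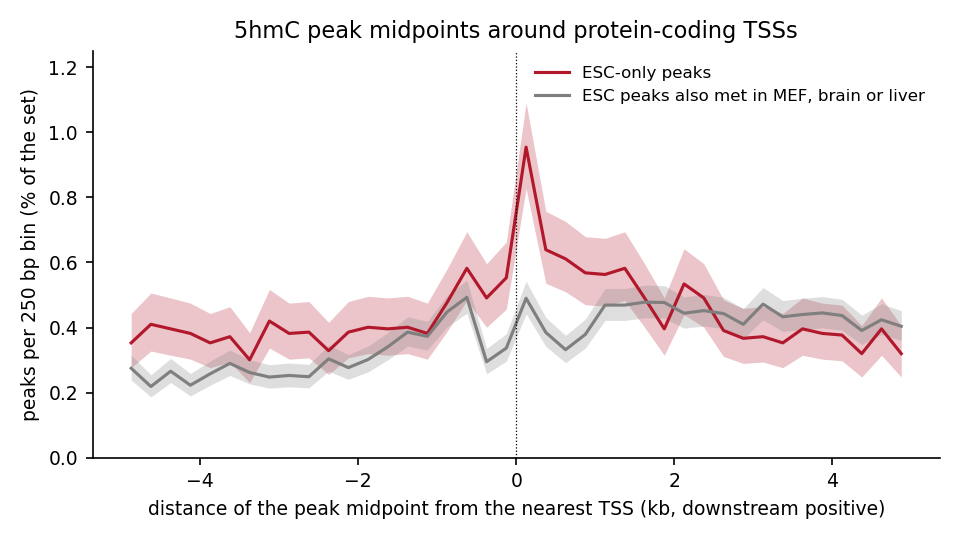
Share of peaks in each 250 bp bin (%, y axis) by the distance of the midpoint from the nearest protein-coding TSS (kb, x axis, downstream positive); lines are the 2 sets and bands the exact 95% intervals. The ESC-only line reaches its highest value, 0.954%, in the bin just downstream of the TSS, where the line of shared peaks is at 0.49%.

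Among the promoters, those of intermediate CpG content were the ones most often under an ESC-only peak. Over all 22367 protein-coding promoters 1401 (6.26%) had at least 1 bp under one, and that share is the background for the counts of promoters below. Promoters were classed by CpG content as low (LCP), intermediate (ICP) or high (HCP). The count was 518 of 5571 ICPs (9.3%, 8.55 to 10.1%), 573 of 9138 LCPs (6.27%, 5.78 to 6.79%) and 310 of 7658 HCPs (4.05%, 3.62 to 4.51%), with intervals that did not overlap. Shared peaks had the same order, with 22.9% of ICPs, 16.4% of LCPs and 14.4% of HCPs.

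The 5 most covered promoters lay wholly under ESC-only peaks: those of Calcb, which encodes a calcitonin-related peptide, D1Pas1, an RNA helicase gene of the testis, Frem3, Gna15, which encodes a G protein alpha subunit, and Hoxd12, a homeobox gene of the limb and trunk. In shSuz12 each of these windows of 2001 bp was still partly covered. The covered length was 1896 bp for Hoxd12, 1042 bp for D1Pas1, 1011 bp for Frem3, 555 bp for Calcb and 459 bp for Gna15.

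The sequence of ESC-only peaks was much richer in CpG than the genome and slightly poorer than that of shared peaks. They held a median of 1.66 CpGs per 100 bp (quartiles 1.3 and 2.13), against 1.8 for shared peaks. In the central 500 bp, where width does not enter, the medians were 1.8 and 2, and that of 5116421 genome windows of 500 bp was 0.6. The median GC content of the whole peak was 48.9 and 49.4%. CpG content followed location: it was 2.35 per 100 bp in promoter members, 2.02 in exons and 1.6 in both introns and intergenic DNA. On promoters the order of the sets turned, with 2.35 in ESC-only and 2.13 in shared peaks, and so it did among peaks with a score of at least 500, with 2.15 and 2.03.

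Short motifs of ESC transcription factors were searched on both strands of the central 500 bp. The octamer ATGCAAAT, bound by Oct4 (Pou5f1), was in 3.01% of ESC-only peaks (2.78 to 3.25%), 2.36% of shared peaks (2.25 to 2.47%) and 4.36% of the genome windows. The extended half-site TCAAGGTCA, bound by the nuclear receptor Esrrb, was in 2.21% (2.02 to 2.42%), 1.83% and 1.07%. The motif CCACACCC of Klf factors was in 6.61% and 6.47%, with overlapping intervals, and in 2.98% of the genome windows. The E-box CACGTG, which holds a CpG itself, was in fewer ESC-only (12.3%) than shared peaks (14.7%), and in 4.83% of the genome windows. A match is a run of letters and not a bound site, and the sets differ in CpG content. The central 500 bp had a median GC content of 50.2% in ESC-only and 50.6% in shared peaks. The genome windows had 41.6%. The part of base composition in the motif shares was not tested.

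ESC-only peaks were met again in shSuz12 less often than shared peaks, and the gap was smaller between peaks of like width or score. The library of shSuz12 met 10338 of the 20965 members, or 49.3% (48.6 to 50%), against 63% of the shared peaks (62.7 to 63.4%) and 47.1% of all ESC peaks. All ESC peaks take in those that shGFP did not meet, while ESC-only and shared peaks were chosen as met by it. The difference between the 2 sets was 13.7 percentage points. Within the 6 width classes it was 2.72 to 4.97 points, and within the 5 score classes 2.1 to 4.68 points, with shared peaks higher in every class. Among ESC-only peaks alone the share rose from 28.7% below 600 bp to 81.4% at 1500 bp or more. The members met by shSuz12 had a median width of 922 bp and a median score of 229, and those not met 768 bp and 147.

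**Figure D3:**
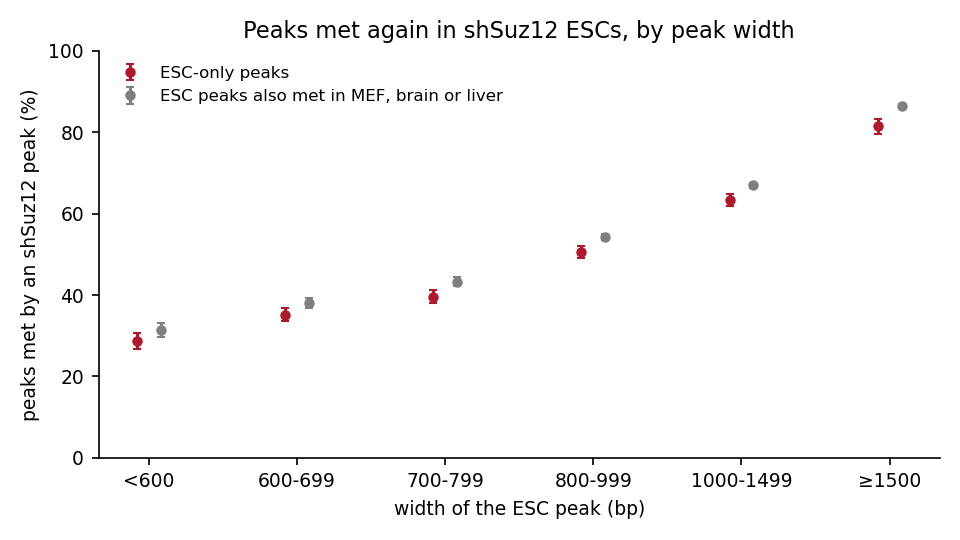
Share of peaks met by an shSuz12 peak (%, y axis) in 6 classes of ESC peak width (bp, x axis), for ESC-only peaks and for ESC peaks also met in MEF, brain or liver; bars are exact 95% intervals for counting error. Both sets rise with width, from 28.7 and 31.4% to 81.4 and 86.4%, and the ESC-only point is the lower one in each class.

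By location, the members most often met by shSuz12 were those on promoters, with 54.9% (51.8 to 58%), and in exons, with 53.3% (51.1 to 55.5%). Intergenic members followed with 49.3% and introns with 47.5%. Promoter and exon members were also wider, with medians of 906 and 875 bp against 818 and 817 bp, and the part of width in this order was not tested. Counted over promoters rather than peaks, 61.4% of those under an ESC-only peak and 61.7% of those under a shared peak also had an shSuz12 peak. Where shSuz12 met a member, it covered a median of 60.6% of it, while shGFP, whose overlap the rule required, covered 84.5% of the same peaks. Shared peaks had the same gap, with 55.8 and 80.9%. The shSuz12 peaks were narrower throughout, with a median of 564 bp against 776 bp in shGFP, and their score in members had a median of 57.7. At a score of at least 80, shSuz12 met 11.3% of ESC-only and 20% of shared peaks.

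Chromosome 8 held the most ESC-only peaks. It carried 2359 of them (11.3%, 10.8 to 11.7%), or 18.9 per Mb, on 4.88% of the genome, while the other autosomes ranged from 5.34 per Mb on chromosome 14 to 13.9 on chromosome 11. Shared peaks were also densest there, with 55.5 per Mb, and 9.13% of them. In the full lists, chromosome 8 had the most peaks in ESCs (15212), shGFP (11567) and shSuz12 (12683). It did not in MEFs (12177), brain (9105) or liver (7300), where chromosome 2 had the most. The cause was not tested. Of the peaks met by shGFP, 25.4% were ESC-only on chromosome 8 (24.5 to 26.3%), inside the interval of chromosome 7 (25.1%, 24 to 26.3%) and above the lowest autosome, chromosome 15 with 17.6%.

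The X chromosome stood apart. It had 92 ESC-only peaks and 34 shared peaks, so that 73% were ESC-only (64.4 to 80.5%), but the ESC list held only 328 peaks there in all. The brain list had 22 peaks on X and the liver list 104, against 757 in MEFs, and the cause of these low numbers was not tested. The Y chromosome held 1 member.

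**Figure D4:**
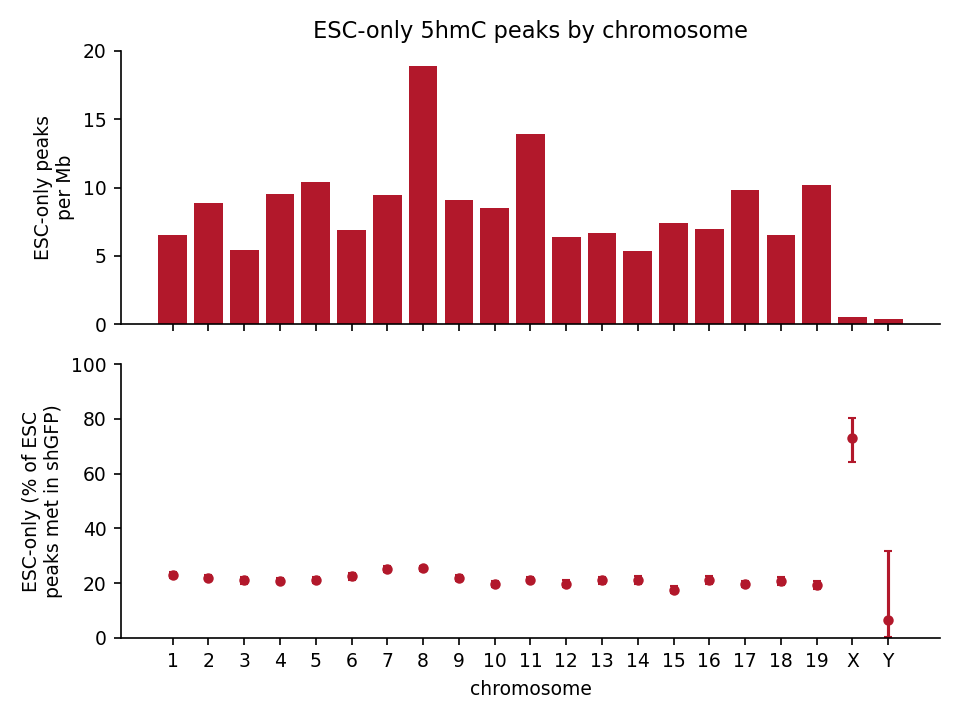
ESC-only peaks by chromosome (x axis): number per Mb (top) and percentage of the ESC peaks met in shGFP that are ESC-only, with exact 95% intervals for counting error (bottom). Chromosome 8 is the highest bar, 18.9 per Mb, but its share, 25.4%, is close to that of chromosome 7; X has few peaks and the highest share, 73%, and the interval of Y spans 0.169 to 31.9% on 15 peaks.

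ESC-only peaks were spread over many genes, mostly 1 to a gene, with a few dense sites. A midpoint of at least 1 member lay in the span of 5416 of 22367 protein-coding genes, or 24.2%, which is the background for the gene counts below. A midpoint was counted in each gene whose annotated span held it, so genes with overlapping spans share members. Of these genes 3206 held 1 member, 313 held at least 5 and 47 held at least 10. Genes with a member were longer, with a median span of 38.6 kb against 15.4 kb for all. Along the chromosomes, neighbouring members lay a median of 26.3 kb apart, and 4295 gaps (20.5%) were no longer than 5 kb. Of 26558 windows of 100 kb, 1043 held at least 5 members, and these windows held 6942 members (33.1%).

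The 10 genes with the most members were all longer than the median gene. Gm20388 led with 149, but its annotated span of 4435 kb on chromosome 8 covers many other genes and held 1013 ESC peaks met by shGFP. Fgfr2, a fibroblast growth factor receptor, had 33 of 218, but over an annotated span of 3009 kb. Any other gene inside that span shares the peaks that lie in it. Cdh13, which encodes a cadherin without a transmembrane domain, had 29 of 81. Rbfox3, the splicing factor known as the neuronal marker NeuN, had 26 of 46. Hydin, a gene of motile cilia, had 24 of 40. Cacna1a, a neuronal calcium channel subunit, had 20 of 40. Etl4 had 20 of 46. Grik3, a kainate receptor subunit, had 19 of 55. Zmat4, a zinc-finger gene, had 18 of 36. Ryr1, the calcium release channel of skeletal muscle, had 17 of 32. Of these 10 genes 5 are on chromosome 8. Without that chromosome the list gained Pcdhgc5, a clustered protocadherin, with 16 of 26 over an annotated span of 168 kb, shared with any gene inside it. It also gained Cdh23, Ksr2, Nos1 and Spnb4 with 15 each, of 45, 35, 27 and 22.

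Rbfox3 (chr11:118351074-118772911) shows the pattern within a single long gene. It held 81 ESC peaks, 51 of shGFP, 61 of shSuz12, 63 of MEFs, 45 of brain and 14 of liver. Its 26 ESC-only peaks were 56.5% of the ESC peaks met by shGFP, and shSuz12 met 15 of them. In a window of 100 kb of this gene from position 118400001, 15 ESC-only peaks stood beside 1 shared peak. The rule allowed none of the MEF, brain or liver peaks to touch the 26, so these counts show only that the other lists had peaks elsewhere in the gene.

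A high share of ESC-only peaks marked a smaller group of genes. Over the 1496 genes with at least 10 ESC peaks met by shGFP the median share was 8.33%. The highest was 90.9% in Pcdha11, a clustered protocadherin that gives neurons their surface identity, with 10 of 11. Its annotated span was 257 kb, and any other gene inside it shares the peaks that lie in that gene. Kcnu1, a potassium channel of sperm, had 10 of 13, and Hoxa3 had 9 of 12, in either of its 2 annotated entries. The span of Hoxa3 takes in those of Hoxa4, Hoxa5 and Hoxa6, which held 1, 1 and 3 of these ESC-only peaks. Morc1, a gene of male germ cells, and Wdr65 had 8 of 11. Elavl3, a neuronal RNA-binding protein, Trim67 and Ttll6 had 7 of 10, and Rab27a, a GTPase of vesicle transport, had 9 of 13. In 14 of the 3749 genes with at least 5 such peaks, all were ESC-only. Hoxd3 led them with 9, followed by 4922505G16Rik, Hoxb3, Myo1g and Tex21 with 6, and by Cep192, Cpne9, Dnajc5b, Elmod2, Gm13242, Gm13251, Kpna7, Nsg2 and Onecut3 with 5. The span of Hoxd3 takes in that of Hoxd4, which held 3 of the 9.

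Per length of gene, the densest was Myo1g, a myosin of blood cells, with 41.6 ESC-only peaks per 100 kb. Ttll13 followed with 34.6, Ckap2, a spindle protein, with 28.3, Kars, the lysyl-tRNA synthetase, with 28, and Terf2, a telomere-binding protein, with 25.8. Elmod2 and Hoxb3 both had 25.7, Foxn4, a factor of retinal and spinal neurons, had 25.5, Hoxd3 had 24.8 and Gm13251 had 23.5. These 10 genes span 14.4 to 36.3 kb, and 4 of them are on chromosome 8. No MEF, brain or liver midpoint lay in Hoxb3 or Gm13251.

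**Figure D5:**
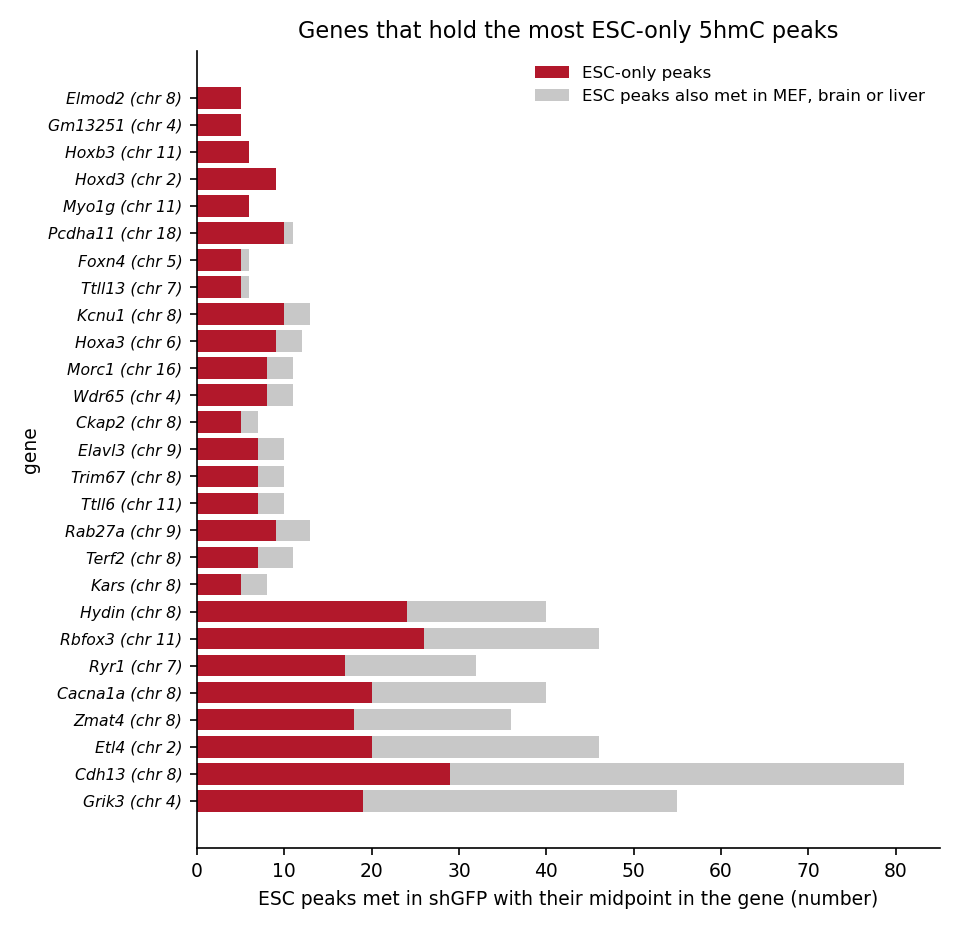
Number of ESC peaks met in shGFP with their midpoint in the gene (x axis), split into ESC-only and shared, for the genes with the most ESC-only peaks, the highest share or the highest density (y axis, ordered by share, chromosome in brackets). Rbfox3 and Grik3 hold many of both kinds, while Hoxd3, with 9, and Hoxb3 and Myo1g, with 6 each, hold ESC-only peaks alone; Gm20388 and Fgfr2, with 1013 and 218 peaks, are left out for scale.

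The Hox clusters, 4 groups of homeobox genes that set position along the body axis and are silent targets of Polycomb in ESCs, held many ESC-only and few shared peaks. This family was added to the lists after its values had been seen, so that it is a description. Over the 4 clusters, 66 of the 74 ESC peaks met by shGFP were ESC-only (89.2%, 79.8 to 95.2%), against 21.6% of all such peaks. Hoxd (chr2:74506367-74603200) had 15 of 15, Hoxb (chr11:96055630-96229570) 21 of 23, Hoxc (chr15:102751534-102867274) 12 of 14 and Hoxa, on chromosome 6, 18 of 22. The MEF list had 12 peaks in the clusters, the liver list 1 and the brain list 0, and these lists were used by the rule. Of the 8 windows of 100 kb with the most members, 4 held Hox genes, with 15 to 19 ESC-only and 0 to 4 shared peaks each.

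The ESC-only peaks of the Hox clusters were wide and CpG-rich. Their median width was 962 to 1027 bp per cluster, against 825 bp for all members, and their median CpG content was 2.37 to 3.27 per 100 bp. The shSuz12 list met 48 of the 66 (72.7%, 60.4 to 83%), which is above the 49.3% of all members. The cluster medians of width lie on both sides of 1000 bp. Of all members of 1000 to 1500 bp shSuz12 met 63.3%, inside that interval, and of those of 800 to 1000 bp 50.6%, below it. The part of width in the Hox share was not tested. A member counts as met by 1 bp of an shSuz12 peak of any score, and that list goes down to 30.3. At a score of at least 80 shSuz12 met 11.3% of all members. The Hox share at that score was not counted. By cluster, shSuz12 met 12 of 15 in Hoxd, 16 of 21 in Hoxb, 15 of 18 in Hoxa and 5 of 12 in Hoxc. Of the 39 Hox genes 17 held an ESC-only midpoint (43.6%, 27.8 to 60.4%), against 24.2% of all genes. The family had a median span of 4.06 kb. Of its promoters 18 (46.2%, 30.1 to 62.8%) touched an ESC-only peak, against 6.26% of all promoters. Only 2 touched a shared peak.

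Developmental transcription factors, a list that shares 2 genes with the Hox clusters, also held more ESC-only than shared peaks. Of 24 listed genes, with a median span of 6.76 kb, 12 held an ESC-only peak (50%, 29.1 to 70.9%), against 24.2% of all genes. Of their promoters 6 (25%, 9.77 to 46.7%) touched one, against 6.26% of all promoters. ESC-only were 32 of their 58 ESC peaks met by shGFP (55.2%), against 10431 of 61932 (16.8%) over all protein-coding genes. Lhx1 (3 of 3) and Lhx2 (4 of 4), LIM homeobox genes of the early head and kidney or brain, had only ESC-only peaks among those met by shGFP. Lhx2 held 6 ESC peaks in all. Pax6, the eye and brain regulator, had 4 of 5, Pax3, of neural crest and muscle, 6 of 9, and Gata4, of heart and endoderm, 5 of 11. Hand1, of heart and trophoblast, had 2 of 2 with 1998 bp of its promoter window under them, and no peak of the 3 differentiated samples lay in it. The promoter of Nkx2-5, a heart regulator, was under ESC-only peaks over 1223 bp, and that of Mixl1, of the primitive streak, over 819 bp.

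Among germline genes that DNA methylation holds silent in other cells, 6 of 20 promoters touched an ESC-only peak (30%, 11.9 to 54.3%), against 6.26% of all promoters. The length under it was 1805 bp in Ddx4, the Vasa helicase, 1650 bp in Sycp1, of the synaptonemal complex, 1442 bp in Stk31, 1415 bp in Taf7l, 1354 bp in Brdt and 1053 bp in Asz1. For 5 of these 6 promoters shSuz12 had 732 to 1321 bp, and for Taf7l 0. Shared peaks touched more of the list, 11 of 20 (55%), against 17.3% of all promoters. In the gene spans 11 genes held a member (55%, 31.5 to 76.9%), against 24.2% of all genes. ESC-only were 14 of their 32 peaks met by shGFP (43.8%), against 16.8% over all genes. The median span was 48.9 kb, longer than the 15.4 kb of all genes.

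Genes of the pluripotency network differed widely in their number of ESC-only peaks. Of 26 listed genes found 10 held one (38.5%, 20.2 to 59.4%), and none of their promoters touched one (0 to 13.2%), while 5 touched a shared peak. Both intervals include the shares of all genes, 24.2% and 6.26%. The listed genes were short, however, with a median span of 6.27 kb against 15.4 kb for all genes. Of their ESC peaks met by shGFP 24 of 70 were ESC-only (34.3%), against 16.8% over all genes. The count rests much on Esrrb, the orphan nuclear receptor, with 12 of 30 peaks. Among the others Prdm14 had 2 of 3, Sall4 2 of 4 and Nr5a2 2 of 20, while Dppa2, Dppa3, Dppa4, Gbx2, Klf5 and Tcl1 had 1 each. The listed core factors Pou5f1, Nanog and Sox2 had none in their spans.

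Of 12 genes for Tet enzymes, methyltransferases and their cofactors, 5 held a member (41.7%, 15.2 to 72.3%), with 18 of 72 peaks ESC-only (25%, against 16.8% over all genes). The interval of the gene count includes the background of 24.2%. Tet1, the main Tet enzyme of ESCs, had 6 of 14, Dnmt1 5 of 12, Dnmt3l, the partner of the de novo enzymes, 3 of 6, Uhrf1, which brings Dnmt1 to replicated DNA, 3 of 5, and Tdg, the glycosylase that removes oxidised bases, 1 of 2. Tet2, Tet3, Dnmt3a and Dnmt3b had none, and none of the 12 promoters touched an ESC-only peak (0 to 26.5%, which includes the 6.26% of all promoters). Of the Polycomb genes 7 of 20 held a member (35%, 15.4 to 59.2%), an interval that includes the background of 24.2%, and 12 of 70 peaks were ESC-only (17.1%). Aebp2 had 3 of 13, Eed 2 of 2, Phc1 2 of 5, Jarid2 2 of 19, and Suz12 itself 1 of 1.

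Marker genes of the differentiated samples differed among themselves. Of 19 brain markers found 11 held an ESC-only peak (57.9%, 33.5 to 79.7%), with 51 of 122 peaks (41.8%), and 25 of 76 (32.9%) without Rbfox3. Slc17a7, the vesicular glutamate transporter, and Gad1, which makes GABA, each had 4 of 4, Grin1, an NMDA receptor subunit, had 3 of 5, and Mbp, of myelin, had 2 of 16. The median span of the brain list was 48.9 kb. Of its promoters 3 (15.8%, 3.38 to 39.6%) touched a member, among them that of the synaptic gene Snap25 with 1409 bp. That interval includes the 6.26% of all promoters. Fibroblast markers had 5 of 20 genes (25%) and 6 of 57 peaks (10.5%), with 2 of 8 in Pdgfrb and 1 of 4 in Col1a1. Liver markers had 4 of 20 genes (20%) and 5 of 38 peaks (13.2%), with 2 of 10 in Hnf4a. Over all genes 24.2% held a member and 16.8% of the peaks were ESC-only, and the difference of the marker lists from these shares was not tested.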

How the data were processed

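The deposited files analysed were the 6 GLIB-Seq peak lists, 1 per library. Per the labels and methods, the authors used CASAVA 1.8 for base calls, mapped reads to mm9 with Bowtie 0.12.7, used reads with a single hit after removing duplicates, and ran MACS 1.4.1 on each library. The deposited score of a peak is the authors' MACS score, taken as 10 times the negative log10 of the p-value. Thresholds and control libraries are not given in the sources used here. The lists give no reads, so depth and its part in list length are unknown. Mitochondrial peaks were left out.

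The members and gene lists were chosen with earlier results of these data known. The gene models were those of GENCODE for NCBIM37 (the assembly of mm9), and sequence came from its FASTA. Printed windows avoid chromosome 18 and untranslated regions. Promoters were TSS ± 1 kb. A promoter was HCP if a 500 bp window between 700 bp upstream and 200 bp downstream of the TSS had an observed to expected CpG ratio over 0.75 with a GC content over 55%, LCP if none was over 0.48, and otherwise ICP. Named genes were those with the most ESC-only peaks, the highest share among genes with at least 10 ESC peaks met by shGFP, the highest density among genes with at least 5 members, the 5 most covered promoters, the 5 highest scores and the members of the lists, with examples given where a list was long. Shares have exact (Clopper-Pearson) 95% intervals. No test between conditions was made, with 1 library each. Steps were tested on simulated peaks. Scripts ran in Python 3.11.15 (matplotlib 3.10.9, scipy 1.17.1, pandas 2.3.3, numpy 2.4.6). 1 gene is not reported here. The alternatives tried were other overlaps, distances, scores, widths, locations and exclusion lists.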

Additional observations from a re-analysis of the deposited data

How the results depend on the processing

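Of 56 alternatives, 15 left the value within its counting interval, 41 moved it and 0 reversed a direction, and the cause was not tested. ESC-only peaks were 12.2% of ESC peaks as reported, 10.5% with an shGFP overlap of at least 50% of both peaks, 7.26% when a differentiated peak within 1 kb excluded a peak, 14.1% at a score of at least 80 in every list, 26.2% with no shGFP peak asked for, 13.2% among peaks of 500 to 1000 bp and 11.9% without chromosome 8. Without the MEF, brain or liver list as a ground for exclusion it was 20.3, 16.7 and 16.3%. The promoter share (4.87%) was 3.7% with no shGFP peak, 4.29% at 500 to 1000 bp, 6.85% by an overlap of 1 bp, 7.2% with all annotated genes, and 2.64 and 8.49% with promoters of 500 bp and 2 kb on each side. It stayed above that of shared peaks in each of them, and the exon share below. The exon share (9.83%) was 10.3% at a score of at least 80 and with no shGFP peak, 9.04% at 500 to 1000 bp and 19.3% by overlap. The intergenic share (49.6%) was 53.8% with the 1 kb distance, 47.7% at a score of at least 80, 47.6% with no shGFP peak, 50.6% at 500 to 1000 bp, 48.6% by overlap and 45.5% with all genes. The share met by shSuz12 (49.3%) was 50% with the 1 kb distance, 17.3% at a score of at least 80, 36.9% with no shGFP peak, 41.3% at 500 to 1000 bp and 48.5% without chromosome 8. CpGs per 100 bp (1.66) were 1.69 with the 1 kb distance, 1.77 at a score of at least 80, 1.58 with no shGFP peak, 1.59 at 500 to 1000 bp, 1.68 without chromosome 8 and 1.8 in the central 500 bp. Chromosome 8 (11.3%) had 10.5% with no shGFP peak, 10.2% at 500 to 1000 bp and 12.1% of bp. Added after the data were seen, ESC scores of 180 to 300 gave 52.7% met by shSuz12, against 54.8% of shared peaks.

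No paired analysis was possible because there is 1 library per condition, and for the same reason no replicate was left out. The unknown depth and the unequal lowest scores limit any reading of absence: a peak missing from MEFs, brain or liver was not called there, which does not show that 5hmC was absent.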
